A study of Mus musculus with 68 samples.

Results

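Microtubules are hollow polymers of paired alpha- and beta-tubulin, and they form the tracks along which neurons move cargo through their axons and dendrites. Several genes encode each tubulin, and microtubule-associated proteins such as Map1a, Map1b, Map2 and tau bind the finished polymer, while stathmins bind free tubulin and favour disassembly. Tau, the protein that forms tangles in Alzheimer's disease, is itself a microtubule-associated protein, which is the background for looking at this gene group in a tau-bearing mouse. The group held 10 genes chosen by name, namely the alpha-tubulins Tuba1a and Tuba1b, the beta-tubulins Tubb2a, Tubb3, Tubb4a and Tubb5, the microtubule-associated proteins Map1a, Map1b and Map2, and the stathmin family gene Stmn3, out of 36172 genes in the table.

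The values came from Patch-seq, in which the contents of a neuron are drawn into the recording pipette after a patch-clamp recording and sequenced. The 68 neurons were dopamine neurons of the ventral tegmental area (VTA), 33 from 3xTg and 35 from wildtype (WT) mice, males and females, all 12 months old. 3xTg mice were homozygous for humanized mutant transgenes of amyloid precursor protein, presenilin 1 and tau on a hybrid C57BL/6 and 129 background, and the WT controls, free of the transgenes, were bred as their own line with a like hybrid background, so genotype and line cannot be told apart. An extraction counted as successful when it brought up a nucleated patch, and fewer transcripts per neuron and less material drawn from it cannot be told apart in such libraries. Each deposited sample was 1 neuron and no mouse was named, so each genotype stands as 1 sample. No test between genotypes was made, and an SD over cells describes cells and not animals.

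Totals ran from 492505 to 1678624 counts per cell, with a median of 1194457 in 3xTg and 982390 in WT. At least 1 count was found for a median of 8511 genes in 3xTg and 7476 in WT cells. The numbers in the cell labels lie in runs of a single genotype, and what they mark is not stated. WT neurons carry numbers from 1 to 22, from 57 to 74 and from 94 to 96, and 3xTg neurons those from 24 to 55 and from 76 to 92. The first runs were set against each other (21 3xTg and 17 WT cells), and so were the second runs (12 and 15 cells). All 4 dopaminergic markers checked (Th, Slc6a3, Slc18a2 and Ddc) had counts in both genotypes, and their normalised sum was at least 2026 in every cell, with medians of 14040 in WT and 19768 in 3xTg. With counts summed over cells and scaled to a total of 1000000 per genotype (CPM), these markers held 15171 CPM in WT and 19270 CPM in 3xTg. The 6 oligodendrocyte markers held 282 CPM in WT and 90.4 CPM in 3xTg, with normalised sums of 8.48 to 3587 and 7.53 to 533 per cell and Opalin at 0 throughout. Astrocyte markers had 164 and 14 CPM, with sums of 0 to 2422 and 0 to 436 and Aldh1l1 at 0 throughout, and microglial markers had 433 and 151 CPM, with sums of 0 to 4052 and 0 to 4284, but the median cell held 15 in WT and 27.1 in 3xTg. Markers of GABA neurons had 45.6 CPM in WT and 29.1 CPM in 3xTg, with sums of 4.48 to 386 and 1.76 to 68.3. Those of glutamate neurons had 43.5 and 15 CPM, with sums of 0 to 1036 and 0 to 125. Only 30 of 35 WT and 28 of 33 3xTg cells were free of any count of Pvalb, Tmem119, P2ry12 and Aldh1l1, whose absence the authors asked for when they chose cells. The part of these in the results was not tested.

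Map1a, Map1b and Map2 have rows in the table under their older symbols Mtap1a, Mtap1b and Mtap2 (gene IDs 17754, 17755 and 17756), and all 3 rows are listed at 0 in all 68 cells. These proteins are abundant in the dendrites and axons of neurons in general. Of 11 rows named Mtap and a digit, 10 were listed at 0, and the other had a summed count of 3. The ribosomal protein gene Rps3a, the elongation factor gene Supt5h, the coatomer gene Copg and the spectrin genes Spna2 and Spnb2, which cells use widely, were also listed at 0 in every cell. Over protein-coding rows whose symbol is older than the one in RefSeq for GRCm38.p6, 1116 of 2277 (49%) were at 0, against 3915 of 18975 (20.6%) of the rows with the current symbol. No level of Map1a, Map1b or Map2 can therefore be read from these rows, and the cause of the zeros was not tested.

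The remaining 7 members were counted and passed the filter for expression, which asked for a normalised count of 1 or more in no fewer than 80% of a genotype's cells, in both genotypes. How far their reads can be told from those of other genes differs. As a rough measure, exact 90-base stretches were compared, the length of a 100-base read after 5 bases are cut from each end. Reads were paired, could be cut further for low quality and needed 90% identity only, so the shares below do not give what the aligner could tell apart. Of all 90-base stretches of the Tuba1a transcript, 66% also occur in a transcript of another gene (GENCODE release M21, GRCm38, the build of mm10), and 70.7% of those of Tuba1b and 39.4% of those of Tubb2a do. Tuba1c, another alpha-tubulin gene on the same chromosome, holds 36.6% of the Tuba1a and 50.3% of the Tuba1b stretches, and Tubb2b holds 37.7% of the Tubb2a stretches. No 90-base stretch of Tubb3, Tubb4a, Tubb5 or Stmn3 recurs in another gene. Counts were not whole numbers in 100% of cells for Tuba1a, 98.5% for Tuba1b and Tubb2a, and between 77.6% and 91% for the other 4 counted members, where 55.3% of all counts above 0 in the table were not whole (over cells with a count, tolerance 0.001).

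The last 90 coding bases of the beta-tubulin members, stop codon included, show how far they can be told apart, since they encode the acidic tail in which tubulin isotypes differ most. Each lies whole in the fourth and last exon of its gene. Capitals mark the bases that lie in no 20-base word shared with a transcript of another gene, and the bases were read from GENCODE transcripts on GRCm38, 5′ to 3′ on the coding strand.
Tubb2a (chr13:34074468-34074557, minus strand): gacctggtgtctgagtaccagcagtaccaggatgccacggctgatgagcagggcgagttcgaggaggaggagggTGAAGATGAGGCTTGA
Tubb3 (chr8:123421593-123421682, plus strand): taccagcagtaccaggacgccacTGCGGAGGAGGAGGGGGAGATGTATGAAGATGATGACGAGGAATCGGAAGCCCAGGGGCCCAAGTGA
Tubb4a (chr17:57080690-57080779, minus strand): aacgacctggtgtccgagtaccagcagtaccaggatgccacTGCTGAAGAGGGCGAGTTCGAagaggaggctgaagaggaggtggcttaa
Tubb5 (chr17:35834982-35835071, minus strand): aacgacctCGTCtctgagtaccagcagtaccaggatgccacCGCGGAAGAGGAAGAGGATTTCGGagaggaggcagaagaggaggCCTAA

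Tubb3 held 67 such bases of 90, Tubb5 33, Tubb4a 21 and Tubb2a 16. Over whole coding regions, Tuba1a and Tuba1b were identical at 98.3% of 1356 positions, with an unbroken identical run of 281 bases. Tubb2a and Tubb2b were identical at 96.5% of 1338 positions, with a run of 551 bases, while Tubb4a and Tubb5 were identical at 83.5% of 1335 positions and shared no run over 30 bases. Values of Tuba1a, Tuba1b and Tubb2a are thus uncertain as values of single genes, and sums over the near-identical genes are given beside them.

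Values are normalised counts, that is, deposited counts divided by a size factor of the cell. For each member the difference, 3xTg minus WT, of the means over cells of log2(normalised count + 1) was taken relative to the same difference of the median expressed gene, which was 0.47. As a further measure, rounded counts were added up per genotype and scaled to CPM, and the intervals given for these sums are exact Poisson intervals at 95% that cover counting error only. Among the 3988 expressed genes, 13.1% were at least 2-fold higher and 6.04% at least 2-fold lower in 3xTg by the means, and 9.88% were at least 1.5-fold higher and 13% at least 1.5-fold lower by the sums. Of the 7 counted members, 1 was at least 2-fold higher by the means (Tubb3) and 1 at least 1.5-fold higher by the sums (Tubb5), and none was lower by either measure. Their median relative difference was −0.01, with 3 of 7 above 0, but all 7 were above 0 with a pseudocount of 10, with genes detected as a term, without the cells under 5000 genes and between the second runs. By the sums the median log2 ratio was 0.27 and all 7 lay above 0, where the median over all expressed genes was −0.03.

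Tuba1a (gene ID 22142, chromosome 15, 98949847 to 98953501, minus strand of mm10 in the authors' table) encodes the main alpha-tubulin of differentiating neurons and is mutated in human lissencephaly. Its lowest, median and highest normalised counts were 334, 2321 and 5207 in WT and 334, 3436 and 5997 in 3xTg. The ranges overlapped almost completely, with 5 3xTg cells above the highest WT cell and 1 WT cell below the lowest 3xTg cell. The means were 10.95 ± 1.14 in WT and 11.28 ± 1.23 in 3xTg on the log2 scale (SD over 35 and 33 cells), a relative difference of −0.15. The sums gave 2655 CPM (interval 2638 to 2672) in WT and 3112 CPM (interval 3094 to 3131) in 3xTg, a log2 ratio of 0.23.

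Tuba1b (22143, chromosome 15, 98931431 to 98934390, minus strand), the widely expressed neighbour of Tuba1a, was counted in every cell. Its normalised count ran from 77.6 to 2818 in WT (median 1261) and from 184 to 3194 in 3xTg (median 1490). Only 1 3xTg cell lay above the highest WT cell, and 3 WT cells lay below the lowest 3xTg cell. The means were 9.71 ± 1.38 and 10.12 ± 1.19, a relative difference of −0.05, and the sums gave 1159 and 1397 CPM, a log2 ratio of 0.27. Tuba1a, Tuba1b and Tuba1c added up within each cell gave a relative difference of −0.07 and a log2 ratio of the sums of 0.31.

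Tubb2a (22151, chromosome 13, 34074280 to 34078008, minus strand) encodes an abundant beta-tubulin of the adult brain. It ran from 24.5 to 2615 in WT (median 783) and from 26.4 to 2896 in 3xTg (median 1156). The genotypes overlapped over nearly the whole range. The means were 9.27 ± 1.51 and 9.69 ± 1.62, a relative difference of −0.05, and the sums gave 968 and 1152 CPM, a log2 ratio of 0.25. Together with Tubb2b it gave −0.02 and 0.28.

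Tubb3 (22152, chromosome 8, 123411564 to 123422010, plus strand) encodes the beta-tubulin restricted largely to neurons, widely used as a neuronal marker under the antibody name TuJ1. It was counted in 34 of 35 WT cells (97.1%, exact binomial interval 85.1% to 99.9%) and in 33 of 33 3xTg cells (100%, interval 89.4% to 100%). Its normalised count ran from 0 to 1445 in WT (median 481) and from 118 to 1717 in 3xTg (median 626). The genotypes parted at the lower end, where 7 WT cells lay below the lowest 3xTg cell, while 4 3xTg cells lay above the highest WT cell. Fewer than 10 counts were found in 5 WT cells and in no 3xTg cell. The means were 7.76 ± 2.85 in WT and 9.37 ± 0.99 in 3xTg, a relative difference of 1.13. This was percentile 90.6 among expressed genes and smaller than the SD over WT cells. Over cells with at least 10 counts the means were 8.80 ± 1.20 and 9.37 ± 0.99, a plain difference of 0.56, against 1.61 over all cells. The sums gave 553 CPM (interval 546 to 561) and 784 CPM (interval 775 to 793), a log2 ratio of 0.50.

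A single cell was enough to move Tubb3 across the 2-fold line. Without WT cell 2, which had no count of Tubb3 among 7929 genes detected, the relative difference was 0.93. In the 31 3xTg and 30 WT cells deep enough to be thinned to 700471 counts it was 0.70 before and 0.71 after thinning, and WT cell 2 was among those left out. Without the cells in which fewer than 5000 genes were detected it was 0.76. Of the WT cells lowest in Tubb3 after cell 2, cell 9 had 1 count of Tubb3 among 4498 genes detected and cell 57 had 1 count among 5198.

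Tubb4a (22153, chromosome 17, 57080066 to 57087782, minus strand) encodes a beta-tubulin of neurons and oligodendrocytes that is mutated in a human hypomyelinating leukodystrophy. It was counted in 35 of 35 WT cells and in 31 of 33 3xTg cells. It ran from 0.692 to 2012 in WT (median 506) and from 0 to 2876 in 3xTg (median 955). The 3xTg cells without a count were cells 24 and 42, and 9 of 33 3xTg cells lay below the WT median. The means were 8.61 ± 2.15 and 9.07 ± 2.69, a relative difference of −0.01, and over cells with at least 10 counts they were 8.84 ± 1.69 and 9.66 ± 1.36. The sums gave 776 and 1018 CPM, a log2 ratio of 0.39. Oligodendrocyte markers held 282 CPM in WT and 90.4 CPM in 3xTg, as given above, and their part in the values of Tubb4a was not tested.

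Tubb5 (22154, chromosome 17, 35833920 to 35838301, minus strand) encodes a broadly expressed beta-tubulin that is high in developing brain. It ran from 2.74 to 1526 in WT (median 342) and from 3.07 to 2121 in 3xTg (median 692). Fewer than 10 counts were found in 5 WT cells and 1 3xTg cell, and 24 of 35 WT cells lay below the 3xTg median. The means were 7.60 ± 2.58 and 9.02 ± 1.73, a relative difference of 0.95 at percentile 85.5 of the expressed genes, again smaller than the SD over WT cells. Over cells with at least 10 counts they were 8.40 ± 1.77 and 9.24 ± 1.21, a plain difference of 0.84, against 1.42 over all cells. The sums gave 494 CPM (interval 486 to 501) and 742 CPM (interval 733 to 751), a log2 ratio of 0.59 at percentile 90.2. Tubb5 therefore lay just short of the 2-fold line by the means and just past the 1.5-fold line by the sums, and leaving out any of 35 single cells brought the sums below the line, down to 0.53 without WT cell 20.

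Stmn3 (20262, chromosome 2, 181306459 to 181314500, minus strand), also called SCLIP, encodes a neuronal stathmin that binds free tubulin. It was counted in 35 of 35 WT and 32 of 33 3xTg cells. It ran from 4.84 to 3063 in WT (median 571) and from 0 to 1890 in 3xTg (median 890). The highest cell of the series was a WT cell, cell 9, which held 11.1% of the WT sum, yet 27 of 35 WT cells lay below the 3xTg median. The means were 8.66 ± 1.90 and 9.28 ± 1.93, a relative difference of 0.15 that was 0.02 without WT cell 5 and 0.40 without 3xTg cell 43. The sums gave 713 and 843 CPM, a log2 ratio of 0.24 that was 0.36 without WT cell 9.

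**Figure D1:**
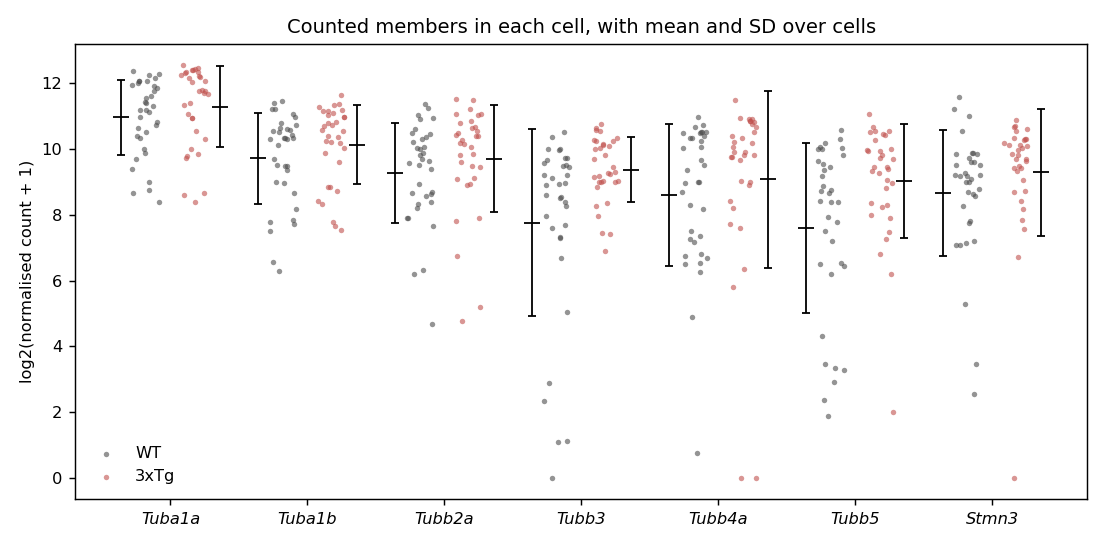
Each point is a cell (35 WT, 33 3xTg), the vertical axis gives log2(normalised count + 1) of the 7 counted members, and the bars are the mean ± SD over cells. The genotypes overlap for every gene, and the cells near 0 belong to WT for Tubb3 and mostly to WT for Tubb5, with 2 3xTg cells at 0 for Tubb4a and 1 for Stmn3.

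The runs of label numbers gave different pictures. Between the first runs, no member was at least 2-fold higher and 1, Tubb4a, was at least 2-fold lower, where 17.5% and 6.75% of expressed genes were, and no member was 1.5-fold higher by the sums, where 20.7% of genes were. Between the second runs, Tubb3, Tubb4a and Tubb5 were at least 2-fold higher by the means and 1.5-fold higher by the sums, where 16.8% and 13.7% of expressed genes were, and no member was 2-fold lower, where 21.3% of genes were. Tubb4a moved most, from −1.24 between the first runs to 1.49 between the second. In WT its median normalised count was 1070 in the first run and 495 in the second, and in 3xTg it was 865 and 1234.

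Tuba1a, Tuba1b and Tubb2a also changed sign, from −0.65, −0.52 and −0.82 between the first runs to 0.44, 0.56 and 0.57 between the second. Tubb3 and Tubb5 stayed well above the median gene in both, with 0.90 and 1.39 for Tubb3 and 0.97 and 1.32 for Tubb5, and Stmn3 had 0.01 and 0.49. By the sums the log2 ratios of the 7 genes were −0.03 (Tubb2a) to 0.48 (Tubb5) between the first and 0.28 (Stmn3) to 0.87 (Tubb3) between the second runs. Runs of 1 genotype differed as well by the means. Within WT, the second minus the first gave −1.22 for Tuba1a, −1.19 for Tuba1b and −1.73 for Tubb4a relative to the median gene, and within 3xTg it gave 1.24 for Tubb4a and 0.67 for Tubb2a. By the sums the log2 ratios were smaller, with −0.04, −0.05 and −0.22 within WT, and 0.53 and 0.55 within 3xTg. The median number of genes detected also differed between runs, with 5233 and 8441 in WT and 7648 and 9308 in 3xTg, and its part in these values was not tested.

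**Figure D2:**
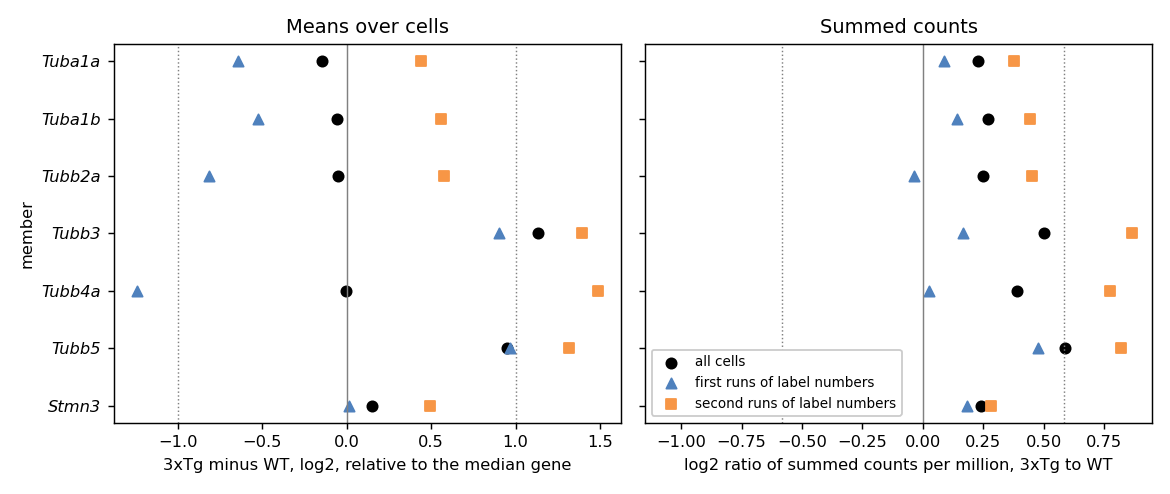
The left panel gives the difference of means over cells (3xTg minus WT, log2, relative to the median gene) and the right panel the log2 ratio of summed CPM for the 7 counted members, over all cells and within the first and second runs, with dotted lines at 2-fold and 1.5-fold. Tubb4a spans −1.24 to 1.49 by the means, while Tubb3 lies between 0.90 and 1.39 and Tubb5 between 0.95 and 1.32.

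Levels of different genes can be compared only per length, so normalised counts were divided by transcript length in kilobases. On this scale Tuba1a was the highest member in both genotypes, with a mean log2(count per kb + 1) of 10.10 ± 1.14 in WT and 10.43 ± 1.23 in 3xTg. It lay above Tuba1b, the next gene, in 34 of 35 WT and 33 of 33 3xTg cells, by 1.20 ± 0.66 and 1.10 ± 0.40. Below it the order by these means was Tuba1b, Tubb2a, Stmn3, Tubb4a, Tubb3 and Tubb5 in WT. In 3xTg it was Tuba1b, Stmn3, Tubb2a, Tubb3, Tubb4a and Tubb5. Medians per kb reversed some neighbours. In WT, Stmn3 (503) lay above Tubb2a (487) and Tubb3 (258) above Tubb4a (227), and in 3xTg, Tubb4a (429) lay above Tubb3 (335). None of the neighbours in this order below Tuba1a differed in their means by more than the SD of their gap over cells. Counted by cells, some were ordered more clearly, with Stmn3 above Tubb4a in 28 of 35 WT and Tubb2a above Tubb3 in 30 of 33 3xTg cells. Others were close to even, with Tubb2a above Stmn3 in 18 of 35 WT and Tubb3 above Tubb4a in 17 of 33 3xTg cells. In WT the smallest mean gap was that of Tubb2a and Stmn3, with 0.11 ± 2.15, and in 3xTg that of Stmn3 and Tubb2a, with 0.10 ± 1.94.

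Among the alpha-tubulin genes, Tuba1a held 58.6% of the summed counts per kb in WT and 56.4% in 3xTg, and Tuba1b held 26.4% and 26.2%. Tuba1a was the largest of the alpha-tubulin genes in 34 of 35 WT and 33 of 33 3xTg cells, and Tuba1b in the remaining WT cell. Tuba4a held 4.03% and 3.09%, and Tuba3a, Tuba3b and Tuba8 held 0.311% or less each. The share of Tuba1c, which is no member but shares sequence with both, was 10.6% in WT and 14.2% in 3xTg. Cell by cell, its share lay between 8.89% and 13.2% in WT (median 10.6%) and between 12.9% and 17% in 3xTg (median 14.2%). The ranges barely touched, since 1 WT cell lay above the lowest 3xTg cell and 3 3xTg cells lay below the highest WT cell.

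This held within both runs, with medians of 10.3% in WT and 14.2% in 3xTg in the first and 10.9% and 14.1% in the second. Per length, Tuba1a exceeded Tuba1c by 2.45 ± 0.25 on the log2 scale in WT and by 1.96 ± 0.20 in 3xTg cells (SD over cells), a difference of −0.49, and the first and second runs gave −0.52 and −0.44. In 95.4% of all pairs of a 3xTg and a WT cell this log2 ratio was the lower one in the 3xTg cell. Over the 21 ratios between the counted members, the share of cell pairs that went one way was 62.3% at most, with a median of 55.2%, against 95.4% for Tuba1a with Tuba1c. Among all 36 ratios computed, those with Tuba1c and Tubb2b included, Tuba1b to Tuba1c had 84.8%, Tuba1a to Tubb2b 68.6% and Tubb2a to Tuba1c 65.6%. The Tuba1a to Tuba1b ratio was 1.20 ± 0.67 in WT and 1.10 ± 0.40 in 3xTg, a difference of −0.10. Such shares depend on the spread over cells as well as on the difference. Tuba1a to Tubb3 differed by −1.14 and Tuba1a to Tubb5 by −1.13, more than the −0.49 of Tuba1a to Tuba1c. Their SDs over cells were larger too, with 2.77 and 2.65 in WT and 0.74 and 1.27 in 3xTg. Tuba1c was picked out after its values were seen. It shares 54.7% of its own 90-base stretches with other genes, its counts were not whole in 97.1% of cells, and how its reads were divided from those of Tuba1a and Tuba1b was not tested. WT mice were a separate line, so genotype and any difference between the lines in the sequence of these genes cannot be told apart.

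**Figure D3:**
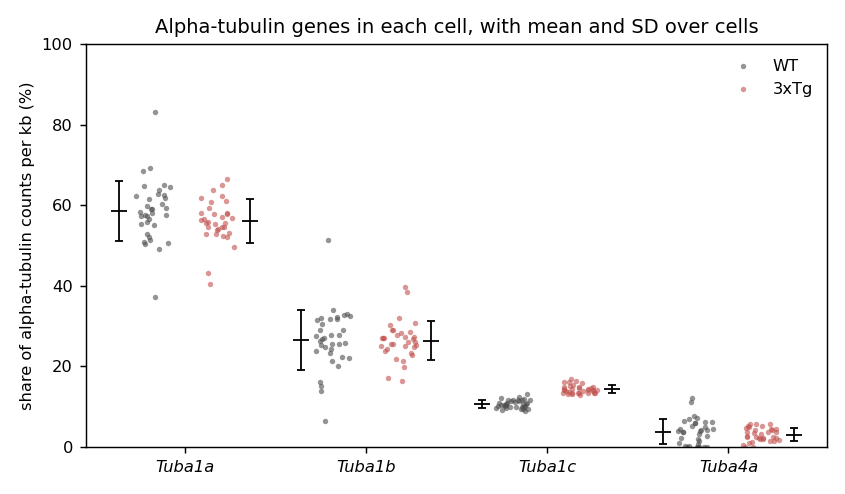
Each point is a cell, the vertical axis gives the share of all alpha-tubulin counts per kb held by Tuba1a, Tuba1b, Tuba1c and Tuba4a (%), and the bars are the mean ± SD over 35 WT and 33 3xTg cells. Tuba1c forms narrow bands, 8.89% to 13.2% in WT and 12.9% to 17% in 3xTg, while the other genes overlap over most of their ranges.

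Among the beta-tubulin genes, Tubb2a held the largest share of the summed counts per kb, 35.1% in WT and 32.5% in 3xTg, followed by Tubb4a with 20.4% and 20.8%, Tubb3 with 17.3% and 19.1%, and Tubb5 with 10.9% and 12.7%. Of the genes outside the group, Tubb4b held 13.5% and 12.7%, Tubb2b 1.12% and 1.56%, and Tubb6 1.70% and 0.553%. Tubb2a was the largest in 26 of 35 WT and 28 of 33 3xTg cells. Single cells departed widely from the sums. Tubb5 held 0.0724% to 89% in WT cells, Tubb3 0% to 53.2%, and Tubb2a 3.99% to 69.3%. In 3xTg cells Tubb2a held 1.25% to 63.2%, Tubb3 9.87% to 49.1% and Tubb5 0.139% to 29.4%. All beta-tubulins added up gave 3254 CPM in WT and 4239 CPM in 3xTg, a log2 ratio of 0.38 and a relative difference of 0.13. All alpha-tubulins gave 4648 and 5646 CPM, a log2 ratio of 0.28 and a relative difference of −0.09.

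**Figure D4:**
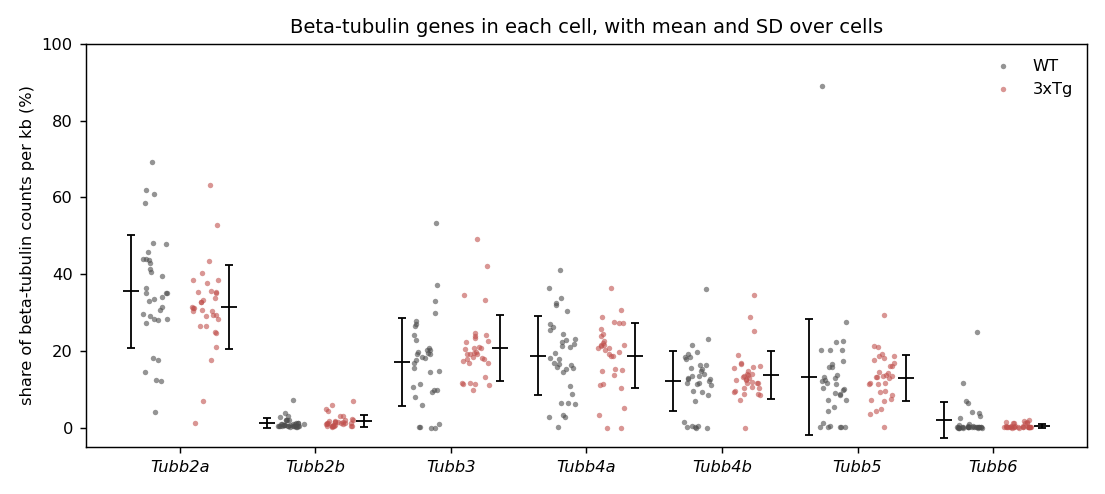
Each point is a cell, the vertical axis gives the share of all beta-tubulin counts per kb held by each of 7 beta-tubulin genes (%), and the bars are the mean ± SD over 35 WT and 33 3xTg cells. Tubb2a is the largest gene in 26 WT and 28 3xTg cells, and every gene overlaps between the genotypes.

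The counted members varied together from cell to cell. All 7 were counted in 34 of 35 WT and 30 of 33 3xTg cells, and all 7 had at least 10 counts in 24 and 30 cells. Spearman's rho over cells, taken within each genotype and averaged over both, ran from 0.46 (Tubb4a with Tubb5) to 0.89 (Tuba1a with Tuba1b) over the 21 pairs, with a median of 0.64. The genotypes differed in some pairs, untested, with 0.71 in 3xTg and 0.21 in WT for Tubb4a with Tubb5, 0.65 and 0.30 for Tubb2a with Tubb5, and 0.69 and 0.30 for Tubb3 with Tuba1b. Tuba1a and Tuba1b were each other's closest partner, with the shared sequence described above. Tuba1a was also the closest partner of Tubb2a (0.86) and of Tubb4a (0.75), Tubb4a was that of Tubb3 (0.70), Tuba1b that of Stmn3 (0.78) and Stmn3 that of Tubb5 (0.71).

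The mean z-score of the 7 genes followed the total count of a cell, with a rho of 0.75, and not the number of genes detected, with 0.02. Single members went both ways with the number of genes detected, from −0.27 for Tuba1b to 0.08 for Tubb3. Within WT, Tuba1b had −0.48 and Tuba1a −0.36. The median rho of the mean z-score over all expressed genes was 0.24. The 5 genes outside the group with the highest rho over 33 and 35 cells were Gm5177 (0.87), Gapdh (0.87) and Pkm (0.87), both of glycolysis, Slc7a11 (0.86), a cystine and glutamate exchanger, and Tuba1c (0.86). Counts had been divided by the size factor of each cell beforehand. The part of depth and of the material extracted in these correlations was not tested.

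A wider list of 78 other tubulin and microtubule genes was set beside the members. Rows were found for 77, of which 8 were listed at 0, among them Map1s, Map4, Map6, Map7, Map7d1 and Map9, and 30 were expressed. Their median relative difference was 0.32, with 22 of 30 above 0, where the median of all expressed genes is 0 by construction. Of the 30, 5 were at least 2-fold higher and 0 at least 2-fold lower, beside 13.1% and 6.04% of all expressed genes. Of the 30, 7 passed the filter through 3xTg alone, among them Clip1, Ttll1 and Ttll7 of the 5, and of the 23 that passed in both genotypes 2 were at least 2-fold higher (Mapre2 and Clip3). The median relative difference was 0.54 over the 7 and 0.26 over the 23. The shares over all expressed genes were not split in this way, here or for the members. By the sums the median log2 ratio was 0.29, with 6 at least 1.5-fold higher and 3 at least 1.5-fold lower, beside 9.88% and 13% of all expressed genes. The expressed gene nearest to the lower line was Fign, which encodes the microtubule-severing fidgetin, with −0.997 by the means and −1.42 by the sums, at 11.6 CPM in WT and 4.36 CPM in 3xTg.

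Nothing particular to the list is read from these counts, and the 5 genes are given for their values. Mapre2, an end-binding protein, had a median normalised count of 201 in WT and 440 in 3xTg, with a relative difference of 1.54, and 1.54 and 1.53 within the first and second runs. Clip1 and Clip3 encode linker proteins of microtubules and membranes. Clip1 had medians of 49.6 and 158, with 1.71 and within the runs 1.75 and 1.72, and reached the filter's count in 93.9% of 3xTg but 74.3% of WT cells. Clip3 had medians of 96.5 and 274, with 1.27 and within the runs 1.46 and 1.07. Ttll1 and Ttll7 encode polyglutamylases, which add glutamate chains to tubulin tails. Ttll1 had medians of 4.08 and 118, with 1.99 and within the runs 2.83 and 1.17. Ttll7 had medians of 20.6 and 62.5, with 1.14 and within the runs 2.10 and 0.05. They reached the filter's count in 74.3% and 62.9% of WT cells. By the sums the log2 ratios were 0.54 for Mapre2, 0.70 for Clip1, 0.30 for Clip3, 1.002 for Ttll1 and 0.47 for Ttll7.

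Of the other list genes, Stmn1 had the highest sum, with 1781 CPM in WT and 2276 CPM in 3xTg. Its relative difference was 0.04, and −0.53 and 0.65 within the first and second runs. Stmn2, which sustains axon regrowth, had 953 and 1099 CPM and 0.26 (0.18 and 0.24 within the runs). Tubb4b had 369 and 447 CPM and 0.85 (0.61 and 0.89), and Tuba1c had 526 and 861 CPM and 0.34 (−0.13 and 0.88). Mapt, the gene of endogenous mouse tau, had 469 CPM (interval 462 to 477) in WT and 363 CPM (interval 357 to 369) in 3xTg, a log2 ratio of −0.37, and a relative difference of −0.46, which was −1.03 within the first and −0.01 within the second runs. Whether reads of the human tau transgene entered the Mapt row was not tested.

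**Figure D5:**
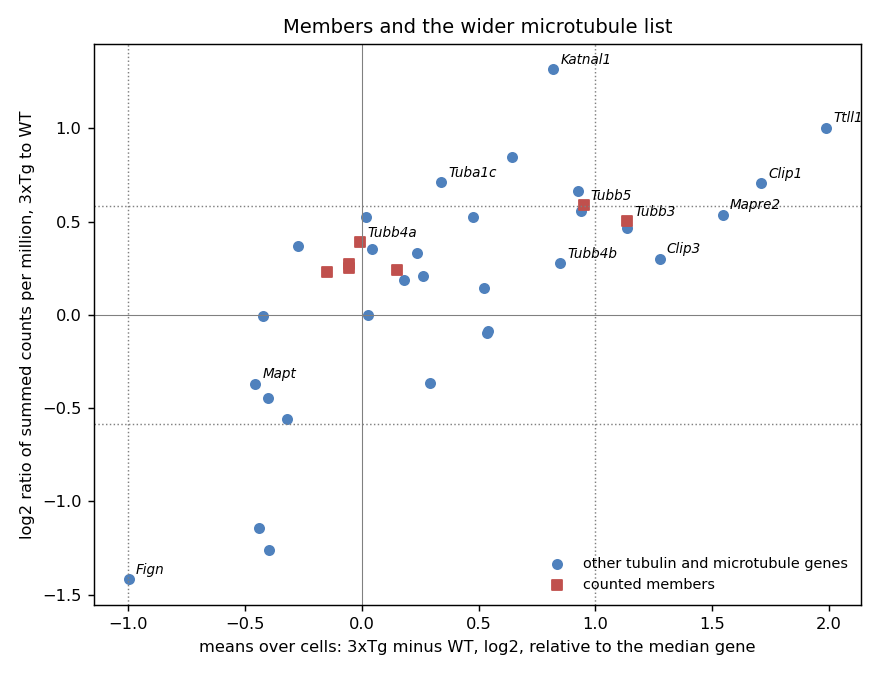
The horizontal axis gives the difference of means over cells (3xTg minus WT, log2, relative to the median gene) and the vertical axis the log2 ratio of summed CPM for the 7 counted members (squares) and the 30 expressed genes of the wider list (circles), with dotted lines at 2-fold and 1.5-fold. All 7 members lie above 0 on the vertical axis, and the 5 circles past 2-fold to the right reach 1.99 for Ttll1, with Ttll7 partly hidden by the Tubb3 square.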

How the data were processed

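RNA of single VTA dopamine neurons was captured by its poly(A) tail, amplified by PCR and sequenced from directional libraries, with no molecular identifiers stated. The estimated counts per gene were made by the authors, who cut the read ends, matched reads to mm10 RefSeq transcripts (Strand NGS 4.0, identity of 90% or more) and discarded duplicates before they deposited each estimated count. The authors also deposited log2 values normalised with DESeq2, used here as an alternative. How reads that fit several genes were counted is not given in the sources used here. By their stated rule the authors retained cells with dopaminergic markers and without Pvalb, Tmem119, P2ry12 and Aldh1l1, though some deposited cells held such counts, as given above.

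Size factors were the median of ratios over 787 genes counted in every cell, without rounding. Sums, thinning (seed 7) and TMM factors used counts rounded to whole numbers. With 1 sample per genotype no test was run. Members were found by symbol (7) or older symbol (3). The members and lists were chosen with earlier results of these data known. The genes named were all members, list genes past 2-fold, the 5 other list genes with the highest sums, the 5 genes most like the members, and each member's closest partner. Tuba1c as a share and Fign were singled out after their values were seen. The alternatives were CPM, TMM factors, pseudocounts of 0.1 and 10 in place of 1, thinned cells, no filter, cells with a count alone, cells without markers of other cells, the runs, genes detected as a term, the authors' values and leaving out each cell in turn. The alternative without cells holding oligodendrocyte genes, 1 of its marker genes and the alpha-tubulin tails are not reported here. The calculations were tested on simulated data. Coordinates of genes are those of the authors' table (mm10), and transcripts and lengths those of GENCODE M21, with the longest RefSeq-matched coding transcript of each gene. Calculations ran in Python 3.11.15 (pandas 2.3.3, numpy 2.4.6, scipy 1.17.1), TMM factors in edgeR 4.0.16 under R 4.3.3, and plots in matplotlib 3.10.9.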

Additional observations from a re-analysis of the deposited data

How the results depend on the processing

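The members' differences, ratios of sums and counts and the median of the wider list were recalculated. The ratios of sums were recalculated only for other choices of cells and for normalised sums. The share of Tuba1c and single genes of the wider list were recalculated only within the runs, and other shares, levels per length and correlations were not. Thinning also left out 5 WT and 2 3xTg cells. The number of counted members at least 2-fold higher in 3xTg, 1 in the reported values, was 0 with thinned cells, in the same cells before thinning (added after the data were seen), between the first runs and without cells under 5000 genes (also added), 2 with no filter on low values and with cells with a count alone, and 3 between the second runs. With single cells left out it ranged from 0 (WT cell 2) to 2, and 10 cells changed it. The number at least 2-fold lower, 0 in the reported values, was 1 between the first runs and 0 with any single cell left out. The number at least 1.5-fold higher by the sums, 1 in the reported values, was 0 without cells with Pvalb, Tmem119, P2ry12 or Aldh1l1, between the first runs, without cells under 5000 genes and in the cells deep enough to thin, 2 with sums of normalised counts, and 3 between the second runs. With single cells left out it ranged from 0 to 1. The cause of these changes was not tested, except that the runs hold fewer cells and that Tubb3 was as low before thinning as after it. With no filter, the members' plain differences did not change, and only the median gene subtracted from them did. The alternative without cells holding oligodendrocyte genes is not given.

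The median relative difference of the counted members ran from −0.52 (first runs) to 0.73 (cells with a count alone), changing sign, and from −0.12 to 0.22 with single cells left out. That of the wider list ran from 0.17 to 0.66. Tubb3 ran from 0.70 to 1.48, Tubb5 from 0.58 to 1.32, Tubb4a from −1.24 to 1.49, and Stmn3 from −0.05 (pseudocount 0.1) to 0.73. Tuba1a, Tuba1b and Tubb2a changed sign between the runs, and were also above 0 with a pseudocount of 10 (0.04, 0.13 and 0.14), with genes detected as a term (0.23, 0.36 and 0.17) and without cells under 5000 genes (0.08, 0.27 and 0.16). They were above 0 with no filter and with cells with a count alone too. In both settings their plain differences were unchanged and only the subtracted median gene differed. Tubb3, Tubb4a and Stmn3 were without a count in 1, 2 and 1 cells, and whether depth set these zeros was not tested. No paired analysis was possible because the labels name no mouse and pair no cells across the genotypes.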
